A study of Mus musculus with 33 samples.

Results

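The messenger RNA of cultured mouse esophageal basal cells, 4 days after deletion of Nudt21 was induced, was set against that of the same kind of cells before deletion. KO day 4 comprised 3 libraries from cells labelled Nudt21 KO, given 4-hydroxytamoxifen (4OHT) at 0.05 µM for 4 days. Day 0 comprised 3 libraries from cells labelled Nudt21 floxed, given ethanol for 4 days, which kept the floxed allele. The comparison was chosen by these labels alone, covers 6 of the 33 samples of the series and 6 of its 18 mRNA libraries, and was run on 12344 of 12348 listed genes. For the poly(A) site libraries the labels give the genotype Nudt21 fl/fl; R26CreER, an inducible Cre at the Rosa26 locus. Other groups set beside these below are KO day 2 (4OHT for 2 days) and hypomorph day 4 (4OHT with doxycycline at 50 ng/ml for 4 days). KO day 6 (4OHT for 6 days) and hypomorph day 6 (4OHT with doxycycline at 50 ng/ml for 6 days) entered the same fit. Their libraries helped to set the filter and the estimate of spread. Cells of all groups grew in SAGM medium with Y-27632 (10 µM, a kinase inhibitor), CHIR99021 (1 µM, which inhibits GSK3 and so activates Wnt signalling), A83-01 (1 µM, which blocks TGF-beta type I receptors) and DMH-1 (1 µM, which blocks BMP receptors). Of these groups all but day 0 received 4OHT, so between KO day 4 and day 0 the agent and the deletion cannot be told apart. The labels do not say whether replicates came from separate cultures, and the p-values may therefore reflect technical spread only.

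Nudt21 encodes CFIm25, the subunit of cleavage factor Im that binds UGUA elements in nascent RNA and takes part in the choice of the poly(A) site. In many cell types less CFIm25 moves cleavage to sites nearer the stop codon, which shortens 3' ends. Basal cells are the dividing layer of the stratified squamous epithelium of the esophagus, attached to the basement membrane by integrins and marked by the keratins Krt5 and Krt14 and the transcription factor Trp63.

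Levels are given in scaled CPM, counts per mega-read (CPM) as scaled by the authors, and are counted per gene and not per length. They are compared between libraries, not between genes. A gene was called when the limma test on log2(scaled CPM + 0.5) gave a Benjamini-Hochberg adjusted p under 0.05. Changes are log2 differences, KO day 4 minus day 0, with their standard errors (SE), and understate the change of genes near 0. The KO day 4 libraries held 50.9, 57.9 and 16.9 M (mega) reads on listed genes, against 17.4, 19 and 16.3 M reads at day 0, so both deep libraries were KO day 4 ones. The summed levels of hepatocyte, erythroid, leukocyte and fibroblast genes were each lowest in replicate 2 of both groups. That of 15 hepatocyte genes was 794, 21.3 and 1371 scaled CPM at KO day 4, against 935, 17.8 and 571 scaled CPM at day 0. In a bulk sample, fewer cells of a type and less RNA per cell cannot be told apart. Whether these reads came from cells in the cultures or from elsewhere is not known and was not tested.

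Nudt21 (GRCm38 chromosome 8, 94019403 to 94037039, minus strand) had 2.7, 2.44 and 3.95 scaled CPM at KO day 4, against 12.2, 14.2 and 12.2 scaled CPM at day 0. No KO day 4 library reached the lowest day 0 library, and the change was −1.94 ± 0.28 (SE, adjusted p = 3.42e-06). Which exon is deleted is not given in the sources used here, so reads from the rest of the transcript may remain. The basal cell markers Krt5, Krt14 and Trp63 were abundant in both groups. Krt5 had 12309, 13819 and 12732 scaled CPM at KO day 4, against 13985, 14601 and 13843 scaled CPM at day 0, and its change of −0.13 ± 0.06 was not called (adjusted p = 0.0901). Krt14 was slightly lower (−0.22 ± 0.07, adjusted p = 0.0123) and Trp63 slightly higher (0.18 ± 0.07, adjusted p = 0.0378), so these markers fitted the labelled cell type in both groups. Of the other basal markers looked at, Krt15 (0.45), Sox2 (0.01) and Itgb4 (0.13) were not called. Itga6 (0.51), Col17a1 (0.37), Pdpn (1.86) and Ngfr (0.95) were called higher. Ngfr was low in both groups, with 2.35, 2.77 and 1.26 scaled CPM at KO day 4, against 1.43, 0.513 and 0.663 scaled CPM at day 0.

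Of the 12344 genes 46% were called: 2921 (23.7%) rose and 2754 (22.3%) fell at KO day 4, and the median change of all genes was 0.03. Changes of at least 2-fold were called in 552 genes that rose (4.47%) and 366 that fell (2.97%). The 3 KO day 4 and 3 day 0 libraries did not overlap in 6477 genes (52.5%). Gene length in the authors' table was longer among the falls of at least 2-fold, with a median of 4224 bases, against 3072 bases among the rises of that size and 3470 bases over all genes tested.

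**Figure D1:**
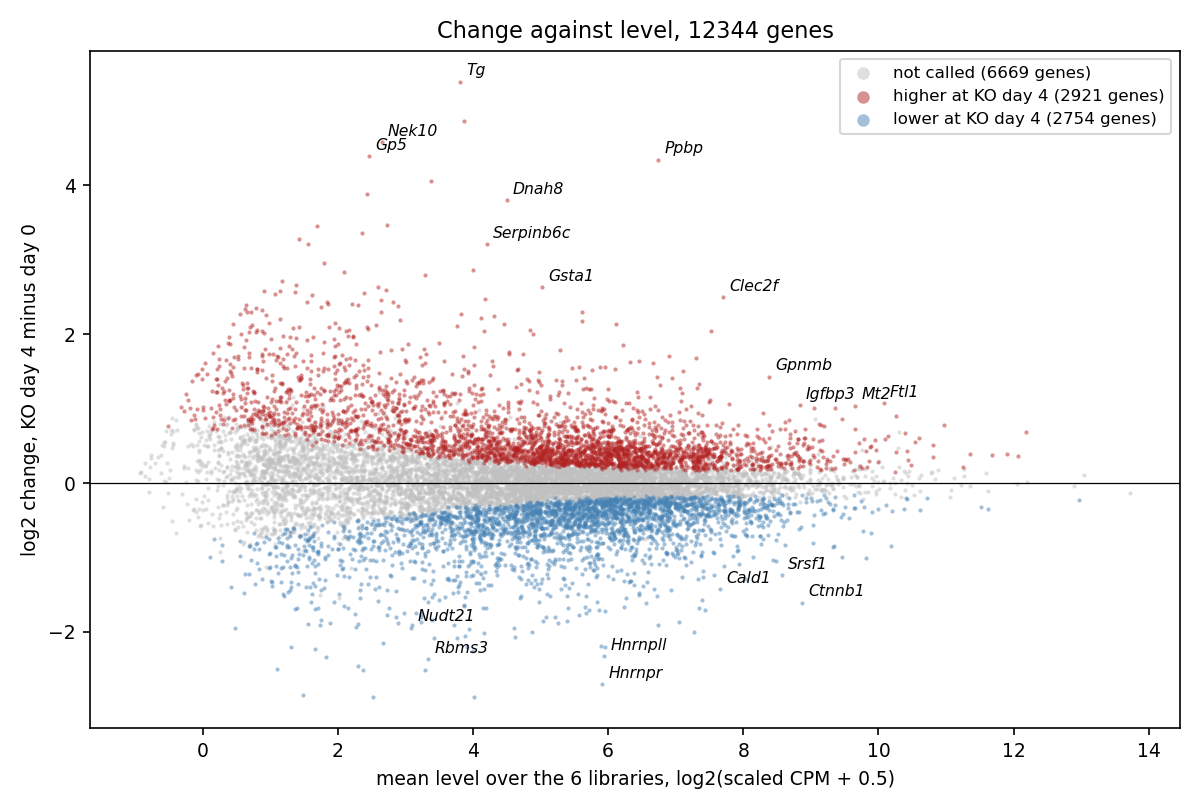
Log2 change of each gene (KO day 4 minus day 0, vertical axis) against its mean level over the 6 libraries (log2(scaled CPM + 0.5), horizontal axis), with called genes coloured by direction. Coloured points are the 2921 genes called higher, which lie above 0, and the 2754 called lower, which lie below it.

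The largest rises included genes best known from other tissues. Tg (chromosome 15, 66670754 to 66850721), the thyroid hormone precursor thyroglobulin, had 25.9, 27.2 and 27.5 scaled CPM at KO day 4, against 0, 0 and 0.603 scaled CPM at day 0. It was the single thyroid follicle gene tested of 10 on that list. Ppbp (chromosome 5, 90768518 to 90770063, plus strand), a chemokine best known from platelets, had 208, 205 and 196 scaled CPM at KO day 4, against 11.1, 8.77 and 8.86 scaled CPM at day 0 (change 4.34 ± 0.10). Of 16 platelet genes on the list 5 were tested; 3 rose and 1 fell, and their summed level was 263, 257 and 261 scaled CPM at KO day 4, against 68.1, 74 and 99.1 scaled CPM at day 0. Ppbp made up most of this sum at KO day 4 and a small share of it at day 0.

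Other large rises followed. Dnah8, a heavy chain of axonemal dynein, had 44.5, 37.7 and 42.6 scaled CPM at KO day 4, against 1.81, 3.74 and 2.29 scaled CPM at day 0 (change 3.80 ± 0.24, adjusted p = 2.49e-10). Nek10, a kinase of the NIMA family, had 11.9, 10.3 and 12.4 scaled CPM at KO day 4 and was at 0 in every day 0 library. That is at least 69.2-fold higher, against a floor of 3 reads per day 0 library. Frmd7, a FERM domain protein known from the nervous system, had 9.37, 11 and 8.52 scaled CPM at KO day 4, against 0.11, 0.103 and 0.362 scaled CPM at day 0 (change 3.89 ± 0.20). Mss51 and Murc (also named Cavin4), both known from muscle, rose by 3.47 ± 0.19 and 3.36 ± 0.20. Cldn7, a claudin of tight junctions, had 4.34, 6.52 and 6.01 scaled CPM at KO day 4, against 0.549, 0.103 and 0.241 scaled CPM at day 0. In none of these genes did the groups overlap, which the rule that picked them required.

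Among the rises of abundant genes, Clec2f, a C-type lectin gene of chromosome 6, had 375, 341 and 343 scaled CPM at KO day 4, against 62.6, 61.3 and 62.1 scaled CPM at day 0 (change 2.50). Gpnmb, a transmembrane glycoprotein of lysosomes and melanosomes, had 461, 503 and 494 scaled CPM at KO day 4, against 151, 201 and 192 scaled CPM at day 0 (1.43). Ftl1, the light chain of the iron store ferritin, had 1250, 1644 and 1508 scaled CPM at KO day 4, against 712, 699 and 667 scaled CPM at day 0 (1.07). The kallikrein Klk10 (1.06), the insulin-like growth factor binding protein Igfbp3 (1.04) and the metallothionein Mt2 (1.04) rose by about 2-fold too. Gsta1, a glutathione transferase, rose by 2.63 ± 0.13 with 53.6, 61.8 and 51.2 scaled CPM at KO day 4, against 6.76, 10.1 and 9.1 scaled CPM at day 0. Its copy Gsta2 rose by 2.79, and reads of these near-identical genes may have been split between them.

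**Figure D2:**
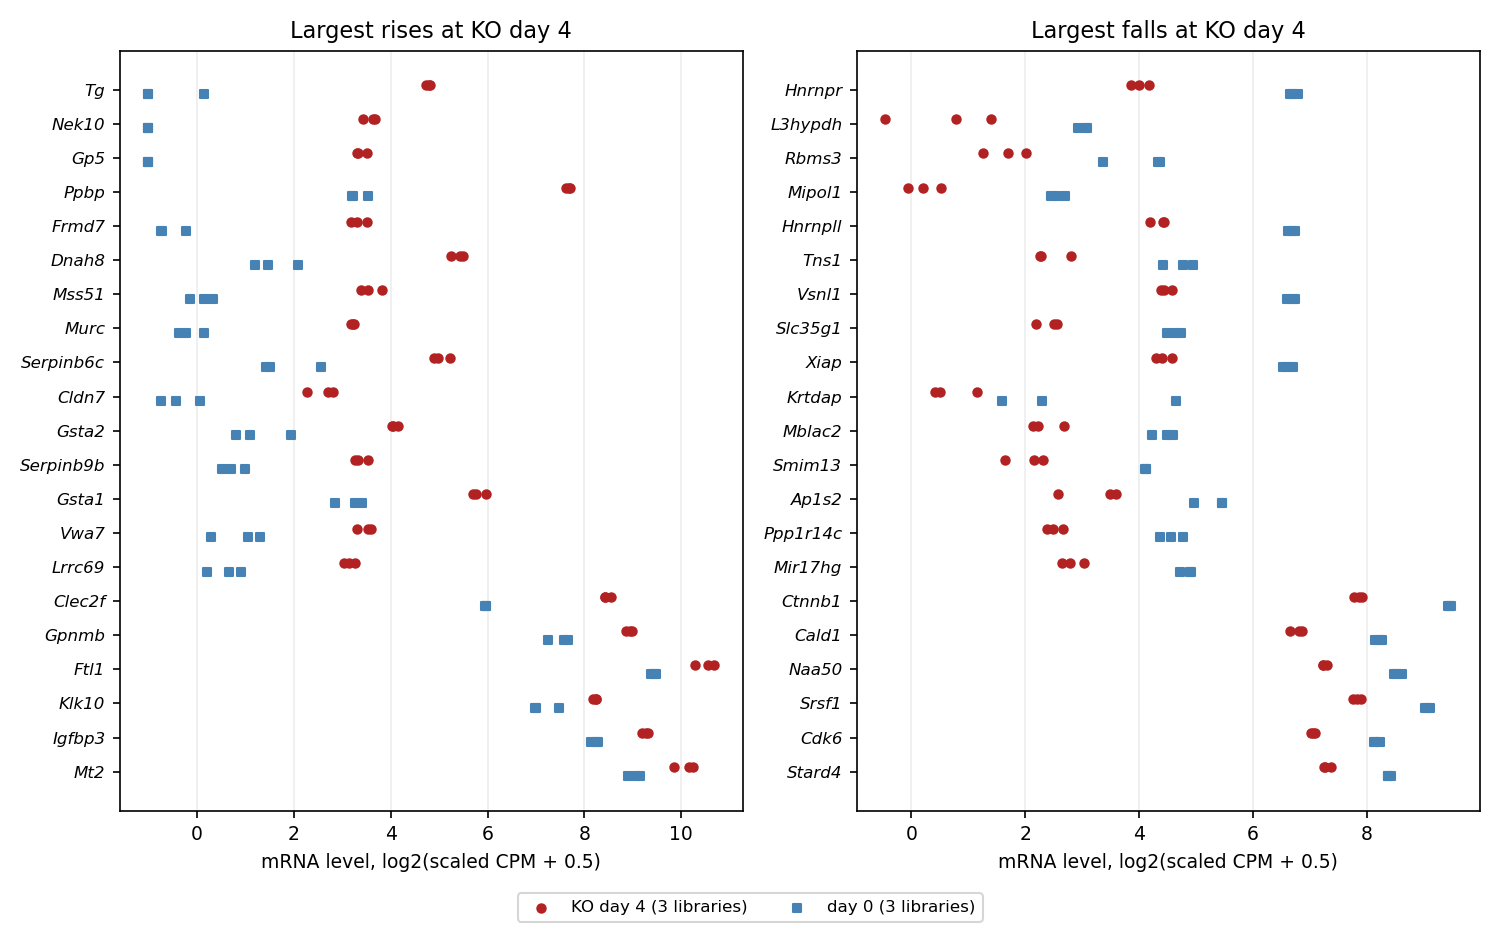
Level in each library (log2(scaled CPM + 0.5), horizontal axis) of the genes with the largest rises and the largest falls, with KO day 4 and day 0 libraries as separate points. Only genes without overlap between the groups were eligible, so the KO day 4 and day 0 points stand apart by choice. The lowest levels at day 0 are those of Tg, Nek10 and Gp5.

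The largest falls included several RNA-binding proteins. Hnrnpr (chromosome 4, 136310942 to 136345981, plus strand), an hnRNP protein that binds nuclear RNA, had 15.4, 14 and 17.4 scaled CPM at KO day 4, against 100.5, 109.8 and 102 scaled CPM at day 0 (change −2.70 ± 0.10). Hnrnpll, a splicing regulator known from T cells, had 20.8, 17.8 and 21.2 scaled CPM at KO day 4, against 102, 97 and 106 scaled CPM at day 0 (−2.33). Xiap, an inhibitor of caspases, had 23.3, 20.6 and 19.1 scaled CPM at KO day 4, against 92.2, 95.9 and 103 scaled CPM at day 0 (−2.19). Vsnl1, a neuronal calcium sensor, had 20.3, 23.5 and 21.1 scaled CPM at KO day 4, against 106, 103 and 95.7 scaled CPM at day 0 (−2.21). Tns1, which links integrins to actin, had 6.52, 4.3 and 4.35 scaled CPM at KO day 4, against 26.7, 20.8 and 30.4 scaled CPM at day 0 (−2.26). Mir17hg, the host transcript of a miRNA cluster that includes miR-17, had 7.69, 6.43 and 5.78 scaled CPM at KO day 4, against 29.2, 25.9 and 29.5 scaled CPM at day 0 (−2.01).

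Ctnnb1 (chromosome 9, 120933400 to 120960507, plus strand) led the falls of abundant genes. It encodes beta-catenin, which joins cadherins to actin and carries the Wnt signal, and had 233, 218 and 241 scaled CPM at KO day 4, against 701, 715 and 689.8 scaled CPM at day 0 (−1.61 ± 0.06). Srsf1, a splicing factor of the SR family, had 227, 216 and 237 scaled CPM at KO day 4, against 533, 519 and 548 scaled CPM at day 0. Naa50, an N-terminal acetyltransferase, had 150.3, 157 and 149.6 scaled CPM at KO day 4, against 356, 369 and 392 scaled CPM at day 0. The G1 kinase Cdk6 had 129, 136 and 132 scaled CPM at KO day 4, against 279, 281 and 298 scaled CPM at day 0. The cholesterol transfer protein Stard4 had 154, 164 and 151 scaled CPM at KO day 4, against 329, 329 and 341 scaled CPM at day 0. Cald1, the actin-binding protein caldesmon, had 116, 111 and 100.4 scaled CPM at KO day 4, against 295, 282 and 306 scaled CPM at day 0. All KO day 4 libraries lay below all day 0 libraries for these genes, again a condition of their choice.

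Of 29 SR proteins and epithelial splicing regulators 21 fell and 2 rose (median change −0.45), against 22.3% lower and 23.7% higher over all genes. Srsf3, which also takes part in mRNA export, had 83.9, 72 and 76.2 scaled CPM at KO day 4, against 242, 253 and 248 scaled CPM at day 0 (−1.67 ± 0.07). Mbnl1 (−0.91), which switches exons between fetal and adult forms, and Srsf10 (−0.88) were also lower. The 2 members that rose were Esrp2 (0.42) and Rbm47 (0.71), both regulators of splicing in epithelia. Within replicate 2 of both groups alone, the median change of the list was −0.41. Of 30 hnRNP genes 19 fell and 1 rose (median −0.24). Hnrnpd had 90.7, 93.8 and 86.8 scaled CPM at KO day 4, against 182, 192 and 208 scaled CPM at day 0 (−1.09), and the abundant Hnrnpa2b1 had 754, 742 and 697 scaled CPM at KO day 4, against 1176, 1192 and 1120 scaled CPM at day 0 (−0.67). Core spliceosome genes fell in 12 of 39 and rose in 3 (median −0.14), and DEAD-box and DEAH-box helicases fell in 16 of 50 and rose in 4 (median −0.10). The helicase Ddx3y, on the Y chromosome, fell by 1.85, although its reads may be shared with the X-linked copy.

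The machinery that cuts and polyadenylates mRNA moved in both directions. Of 24 cleavage and polyadenylation factors 6 rose and 5, Nudt21 among them, fell (median −0.08), against 23.7% higher and 22.3% lower over all genes. Papolg, a nuclear poly(A) polymerase, had 69.3, 62.3 and 63.5 scaled CPM at KO day 4, against 19.4, 25.1 and 21.8 scaled CPM at day 0 (1.54 ± 0.09, adjusted p = 2.33e-13). Pcf11, which couples cleavage to the end of transcription, had 121, 101 and 95.5 scaled CPM at KO day 4, against 71.3, 59.6 and 67.2 scaled CPM at day 0 (0.67). Cstf2, which binds the downstream GU-rich element, had 96.4, 88.8 and 83.2 scaled CPM at KO day 4, against 140.2, 143 and 157 scaled CPM at day 0 (−0.71). Genes of mRNA decay and 3' end binding split evenly, with 11 rises and 11 falls in 41. Msi2, a stem cell RNA-binding protein, was lower (−1.02). Among 15 genes reported elsewhere as CFIm25 targets 7 fell and 1 rose (median −0.07). Vma21, an assembly factor of the vacuolar proton pump, had 15.2, 17 and 15.7 scaled CPM at KO day 4, against 53.9, 56.7 and 60 scaled CPM at day 0 (−1.80).

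Poly(A) site sequencing of the same conditions gave a readout that the mRNA comparison did not use. The authors' table gives, for each gene, 1 pooled value per group for use of the proximal site relative to the distal one, written here as the proximal share in percent, so these shares have no error. In 2135 of the 4322 genes in both tables the authors called a shift to the proximal site, with a median share of 77.7% at KO day 4 and 13.4% in control. Of these genes 35.3% fell and 22.3% rose in mRNA (median −0.08). Of 2092 genes with no call 22.3% fell and 24.8% rose (median 0.02), and of 95 genes shifted to the distal site 34.7% fell and 25.3% rose (median −0.09). By size of shift, the share of genes that fell was 21.1% within 10 points either way, 27.2% from 10 to 30 points, 34.6% from 30 to 50, 38.0% from 50 to 70 and 38.7% above 70 points. Over single genes the relation was weak, with Pearson's r of −0.121 and Spearman's rho of −0.130 across 4322 genes, which are not independent and share the control condition.

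Genes that fell at least 2-fold were more often shifted. Poly(A) site data covered 106 of these 366 genes (29.0%). Of the 106, 85 (80.2%) were called proximal, with a median shift of 42.6 points, against 49.4% and 19.8 points over all 4322 genes. Of the 552 genes that rose at least 2-fold 40 (7.25%) were covered. Among those 40, 20 (50%) were called proximal, with a median shift of 17.05 points. Srsf1 went with a proximal share of 94.8% at KO day 4 and 0% in control, Naa50 with 92.0% and 7.63%, Stard4 with 97.8% and 24.7%, and Cdk6 with 95.7% and 36.2%. Ctnnb1, which fell further than these, had shares of only 13.1% at KO day 4 and 0% in control. A pair of splicing regulators shifted the other way. The proximal share of Luc7l2, a U1-associated protein, was 7.22% at KO day 4 and 84.7% in control, and that of Qk, an RNA-binding protein of the STAR family, 11.4% and 100%. Both fell in mRNA, Luc7l2 to 112, 109 and 107 scaled CPM at KO day 4, against 186, 194 and 183 scaled CPM at day 0, and Qk to 93.3, 81.1 and 93 scaled CPM, against 158, 164 and 180.3 scaled CPM at day 0. Srsf3 and Nsdhl were among the strong falls for which the authors called no shift.

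**Figure D3:**
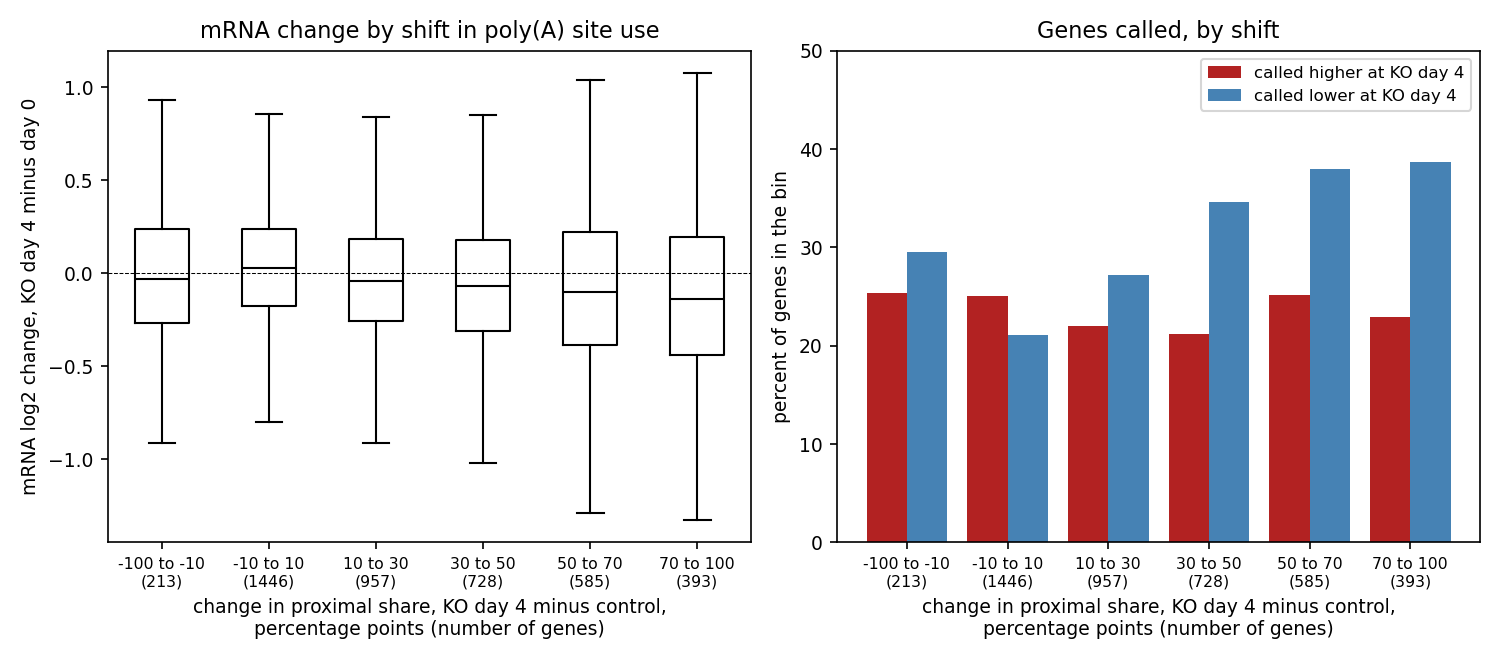
mRNA change by the change in proximal poly(A) site share (KO day 4 minus control, percentage points, horizontal axis). The left panel gives the log2 mRNA change as boxes (quartiles, median line) and the right panel the percent of genes called higher or lower; the percent called lower is 21.1% within 10 points and 38.7% above 70 points.

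Of 561 genes with a day 0 mean under 1 scaled CPM 261 rose and 2 fell, and 17 of the risers averaged at least 5 scaled CPM at KO day 4. The direction of these counts is largely set by the choice of the genes and is no result, since they were taken for a low day 0 level and a filter kept them only if at least 3 of the 18 libraries reached 1 CPM. The day 0 libraries were all shallow, and 3 reads stood for 0.165, 0.154 and 0.181 scaled CPM in them. Of 22 genes at 0 in all day 0 libraries 16 rose, among them Nek10 and Gp5, a platelet glycoprotein gene that had 11, 9.44 and 9.61 scaled CPM at KO day 4.

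Low genes that rose were set beside other genes by their position. Gene starts, ends and strands came from the GRCm38 RefSeq table. The distance ran from each gene's start to the end of the nearest tested gene upstream on the same strand. Genes that were not tested or had no single strand were skipped, so gaps to the nearest annotated gene can be shorter. Of 114 genes with a day 0 mean under 1 that rose at least 2-fold 38 (33.3%) lay within 10 kb of such a gene, against 42 of 226 (18.6%) with the same low day 0 level and no call, and 1562 of 9680 genes (16.1%) overall. The median gap was 31.2 kb for the low genes that rose, 62.2 kb for the low genes with no call and 94.0 kb overall. Genes that fell at least 2-fold had 27 of 279 (9.68%) within 10 kb and a median gap of 208.7 kb. Beside the 38 low genes that rose, the upstream gene fell in 15 cases and rose in 7, against 347 falls and 378 rises beside the 1562. Beside all 88 genes within 10 kb that rose at least 2-fold, at any day 0 level, the upstream gene fell in 23 cases and rose in 23. These are counts over genes of one comparison and carry no test.

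Single pairs show the arrangement. Nek10 (chromosome 14, 14803580 to 15012059, plus strand) starts 3.635 kb after Slc4a7, a bicarbonate transporter gene, and Slc4a7 had 50.7, 48.2 and 46.7 scaled CPM at KO day 4, against 82.7, 86 and 90 scaled CPM at day 0 (−0.82). Mss51 starts 2.462 kb after Ppp3cb, a catalytic subunit of calcineurin. Ppp3cb had 44.8, 40.5 and 45.2 scaled CPM at KO day 4, against 73.7, 67.4 and 77.3 scaled CPM at day 0 (−0.74), while Mss51 had 10, 11.1 and 13.7 scaled CPM at KO day 4, against 0.769, 0.41 and 0.603 scaled CPM at day 0. Murc starts 0.381 kb after Tmeff1. Tmeff1 had 34, 33.2 and 29.3 scaled CPM at KO day 4, against 43.4, 44.9 and 49.3 scaled CPM at day 0 (−0.51), and Murc 9, 8.55 and 8.87 scaled CPM at KO day 4, against 0.275, 0.615 and 0.362 scaled CPM at day 0. In each of these pairs, taken from the largest rises, the upstream gene was lower and the downstream gene higher in all 3 KO day 4 libraries. Not every pair did so. Serpinb9b, also among the largest rises, starts 9.458 kb after Serpinb9 and averaged 9.92 scaled CPM at KO day 4, against 1.19 scaled CPM at day 0. Its upstream gene Serpinb9 was higher too, with a mean of 12.4 scaled CPM at KO day 4, against 7.69 scaled CPM at day 0 (0.64). Wfikkn1, 1.255 kb after Rab40c, had 4.84, 4.97 and 6.98 scaled CPM at KO day 4, against 0.439, 0.615 and 0.904 scaled CPM at day 0, while Rab40c, at 41.3, 41.7 and 41.8 scaled CPM at KO day 4, against 37.6, 41.9 and 42.6 scaled CPM at day 0, was not called (adjusted p = 0.774). Klhl41, 2.548 kb after Bbs5, also rose (2.56), and Bbs5 was not called (−0.42, adjusted p = 0.1). The Wfikkn1 and Klhl41 pairs were picked after their values were seen. Whether reads of the downstream gene come from transcripts of the upstream one was not tested.

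**Figure D4:**
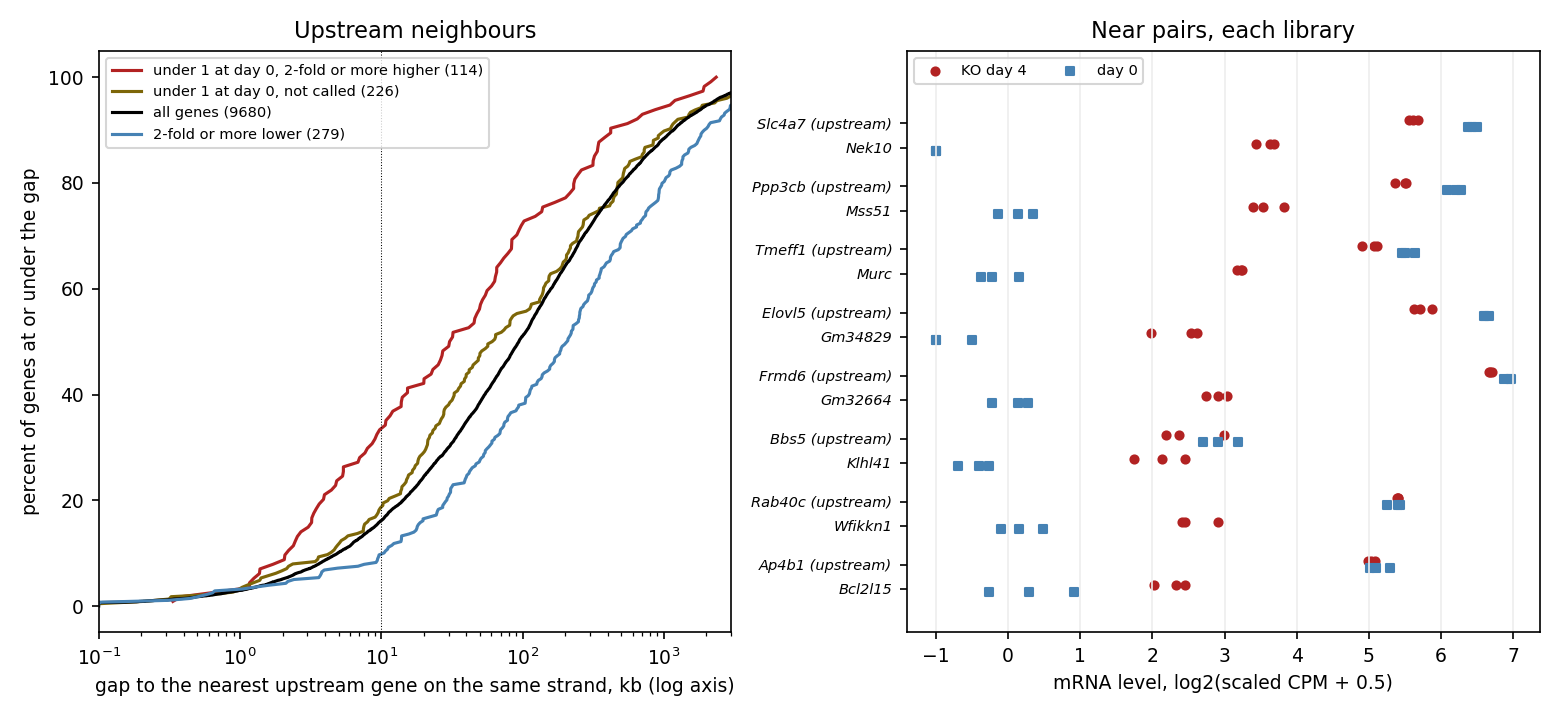
Left, the cumulative share of genes by the gap to the nearest tested upstream gene on the same strand (kb, log axis), for classes of mRNA change. Right, the level in each library (log2(scaled CPM + 0.5)) of genes that rose and of their upstream neighbours. Low genes that rose at least 2-fold have a median gap of 31.2 kb, and all genes one of 94.0 kb.

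Of 40 interferon response genes tested 25 rose, 14 of them at least 2-fold, and 2 fell (median 0.62), against 23.7% higher and 22.3% lower over all genes. The guanosine triphosphatase Igtp had 6.11, 6.14 and 4.98 scaled CPM at KO day 4, against 0.549, 1.85 and 0.603 scaled CPM at day 0 (2.16 ± 0.26). Tapbp, the gene of tapasin, which helps to load peptides on MHC class I, had 90.4, 107 and 106 scaled CPM at KO day 4, against 32.2, 39.5 and 32.7 scaled CPM at day 0 (1.53). The peptide transporter Tap2 had 18.1, 16.8 and 17.7 scaled CPM at KO day 4, against 4.78, 6.46 and 4.7 scaled CPM at day 0 (1.64), and Nlrc5, the transactivator of class I genes, was higher by 1.66. The 2 that fell were Ifit2 (−0.96) and Trim25 (−0.37), so the list did not move as one. KO day 4 replicate 3 was the only library of its group under 40 M reads. Set alone against the 3 day 0 libraries, it gave a median change of 0.61 for the list. Replicate 2 of both groups alone gave a median of 0.64.

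Chemokines, cytokines and alarmins rose in 14 of 25 and fell in 2 (median 0.62), against 23.7% higher and 22.3% lower over all genes. Il24, a cytokine of the interleukin-10 family, had 79, 83.8 and 79.1 scaled CPM at KO day 4, against 14.7, 13.8 and 20.2 scaled CPM at day 0 (2.29 ± 0.12). Il1rn, the interleukin-1 receptor antagonist, had 117, 111 and 108 scaled CPM at KO day 4, against 21.5, 29.3 and 25.4 scaled CPM at day 0 (2.13). The neutrophil chemokine Cxcl1 had 38.2, 32.6 and 34.5 scaled CPM at KO day 4, against 12.2, 7.59 and 10.7 scaled CPM at day 0. Its neighbours Cxcl2 (2.62, 2.73 and 1.49 scaled CPM at KO day 4, against 0, 0.41 and 0.783 scaled CPM at day 0) and Cxcl3 were higher at low levels. Cxcl14, a chemokine of resting epithelia, had 1.08, 1.1 and 1.03 scaled CPM at KO day 4, against 6.21, 4.56 and 5.24 scaled CPM at day 0 (−1.89). Of 25 NF-kappaB subunits and feedback genes 13 rose and 1, the kinase gene Chuk (−0.35), fell (median 0.28). Tnfaip2 had 44.5, 47.3 and 48.5 scaled CPM at KO day 4, against 10.6, 10.6 and 12.8 scaled CPM at day 0 (2.01), and the feedback inhibitor Nfkbia had 95.4, 107 and 113 scaled CPM at KO day 4, against 57.3, 57.8 and 57.2 scaled CPM at day 0 (0.86). With KO day 4 replicate 3 alone against the 3 day 0 libraries, the median change was 0.54 for the chemokine and cytokine list and 0.27 for the NF-kappaB list. The summed level of 6 leukocyte genes was 61.8, 12.7 and 92.6 scaled CPM at KO day 4, against 67.6, 7.28 and 43.7 scaled CPM at day 0, and none of the 6 was called; their part in these results was not tested.

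The promoters of these genes carry letters in common. In RefSeq windows from 250 bases before to 50 after the start (GRCm38.p6), the core of the interferon-stimulated response element (GAAA, any 2 bases, then GAAA, on either strand) was found in 10 of the 19 interferon genes that rose and had a window (52.6%). It was found in 5 of the 14 other tested members (35.7%) and in 331 of 9720 tested genes with a window (3.41%). An NF-kappaB core (GGGA or GGGG, any 4 bases, then CC, on either strand) was found in 10 of 11 NF-kappaB list genes that rose (90.9%), 4 of the 10 others (40%), 7 of 10 chemokine and cytokine genes that rose (70%), 4 of the 8 others (50%) and 4604 of 9720 tested genes (47.4%). The 2 NF-kappaB forms cover both strands and may overlap one another. A match describes these letters and shows no binding. Windows of 30 bases around the interferon core are shown for members that differ in how much they rose, on the gene's strand, 5′ to 3′, with the match in capitals.
Igtp, chr11:58199512-58199541, plus strand: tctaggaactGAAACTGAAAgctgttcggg
Irgm2, chr11:58214903-58214932, plus strand: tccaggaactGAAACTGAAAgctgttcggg
Oas3, chr5:120777715-120777744, minus strand: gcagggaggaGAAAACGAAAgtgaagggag
Gbp2, chr3:142620594-142620623, plus strand, core on the opposite strand: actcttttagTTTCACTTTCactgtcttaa
B2m, chr2:122147538-122147567, plus strand: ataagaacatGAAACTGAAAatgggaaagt
Igtp and Irgm2, neighbours in the same family of guanosine triphosphatases, have nearly the same window, and rose by 2.16 and 0.86; the call of Irgm2 was lost in 11 of 21 alternative analyses, with adjusted p up to 0.645. Oas3, a sensor of double-stranded RNA that was near 0 at day 0, rose by 1.32, and Gbp2, a guanylate-binding protein, by 1.41. B2m, the light chain of MHC class I, has the same 10 letters as Igtp and rose by 0.54, with 79.6, 79.2 and 67 scaled CPM at KO day 4, against 57.3, 51.2 and 46.8 scaled CPM at day 0.

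Windows around the NF-kappaB core are shown for the 3 clustered chemokine genes and for 2 other genes that rose, on the gene's strand, 5′ to 3′, with the match in capitals.
Cxcl1, chr5:90891164-90891193, plus strand: cctgtactccGGGAATTTCCctggcccgga
Cxcl2, chr5:90903792-90903821, plus strand: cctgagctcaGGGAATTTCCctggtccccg
Cxcl3, chr5:90786018-90786047, plus strand: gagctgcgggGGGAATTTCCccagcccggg
Nfkbia, chr12:55492657-55492686, minus strand, core on the opposite strand: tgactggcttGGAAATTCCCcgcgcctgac
Ccl20, chr1:83116675-83116704, plus strand: taatcaatggGGGAAAACCCcgggtgagaa
Cxcl1, Cxcl2 and Cxcl3 share the same 10 letters and rose by 1.76, 1.70 and 1.18. Ccl20, a chemokine that attracts CCR6-bearing cells, had 2.58, 2.29 and 1.37 scaled CPM at KO day 4 and was at 0 in every day 0 library.

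Integrin and hemidesmosome genes rose in 10 of 20 and fell in 1 (median 0.21), against 23.7% higher and 22.3% lower over all genes. Itga6, the laminin receptor subunit of hemidesmosomes, had 2146, 2136 and 2020 scaled CPM at KO day 4, against 1369, 1483 and 1580 scaled CPM at day 0 (0.51), and Itga2, a collagen receptor subunit, had 23.1, 21.3 and 21.3 scaled CPM at KO day 4, against 6.26, 6.87 and 9.34 scaled CPM at day 0 (1.51). Pdpn, the glycoprotein podoplanin, had 120.1, 121 and 106 scaled CPM at KO day 4, against 25.3, 36 and 34.3 scaled CPM at day 0 (1.86). Extracellular matrix genes, by contrast, fell in 12 of 24, 8 of them at least 2-fold, and rose in 7 (median −0.38). Timp2, an inhibitor of matrix metalloproteinases, had 22.9, 25.8 and 22.2 scaled CPM at KO day 4, against 74.1, 72.9 and 80.3 scaled CPM at day 0 (−1.66). Col7a1, the collagen of anchoring fibrils, had 91.1, 103 and 102 scaled CPM at KO day 4, against 227, 249 and 236 scaled CPM at day 0 (−1.26), and Fras1 was lower by 1.79.

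Junction genes rose in 17 of 36 and fell in 7 (median 0.23), against 23.7% higher and 22.3% lower over all genes. The adherens junction cadherin Cdh1 had 588, 599.9 and 609 scaled CPM at KO day 4, against 342, 372 and 369 scaled CPM at day 0 (0.73), while its partner Ctnnb1 fell. Marveld2, a protein of tricellular tight junctions, had 15.1, 14.9 and 13.8 scaled CPM at KO day 4, against 3.3, 4.31 and 4.58 scaled CPM at day 0 (1.74). Perp, a p53 target of desmosomes, had 823, 847 and 840.3 scaled CPM at KO day 4, against 1474, 1673 and 1362 scaled CPM at day 0 (−0.84). Of 27 listed genes typical of simple epithelia only 10 were tested, of which 7 rose and none fell (median 0.96). Epcam had 93.3, 94.6 and 86.7 scaled CPM at KO day 4, against 37.8, 40.6 and 49 scaled CPM at day 0 (1.11), and Krt18, a keratin of simple epithelia, had 17.1, 16.4 and 15.5 scaled CPM at KO day 4, against 8.9, 6.26 and 6.15 scaled CPM at day 0 (1.16). In replicate 2 of both groups alone, the median change of junction genes was 0.05.

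The squamous differentiation genes depended on the day 0 replicate. Of 47 tested 17 rose and 3 fell (median 0.35), against 23.7% higher and 22.3% lower over all genes. Tmprss11e, a serine protease of squamous epithelia, had 296 scaled CPM in all 3 KO day 4 libraries, against 64.6, 76.2 and 73.4 scaled CPM at day 0 (2.05 ± 0.08). Krt17, a keratin of activated keratinocytes, had 5331, 6172 and 5760 scaled CPM at KO day 4, against 3457, 3518 and 3736 scaled CPM at day 0 (0.69). Day 0 replicate 2 stood apart for late genes of the list. Tgm3, a transglutaminase of the cornified envelope, had 0.578, 0.43 and 1.26 scaled CPM at KO day 4, against 3.41, 49 and 1.21 scaled CPM at day 0, and the groups overlapped (−2.52 ± 0.94, adjusted p = 0.0442, or 0.0606 with the replicate block). Krtdap, a protein of differentiating keratinocytes, had 0.926, 0.842 and 1.72 scaled CPM at KO day 4, against 4.39, 24.6 and 2.53 scaled CPM at day 0, and its call was lost in 4 of 22 alternative analyses. Setting replicate 2 of KO day 4 against replicate 2 of day 0 turned the list round, to a median of −0.20.

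Signalling genes gave mixed pictures, set against 23.7% higher and 22.3% lower over all genes. Wnt pathway genes rose in 12 of 37 and fell in 11. Wnt9a had 29.6, 38.2 and 37.5 scaled CPM at KO day 4, against 9.83, 9.54 and 11.1 scaled CPM at day 0 (1.73), and Wnt4 had 409, 484 and 505 scaled CPM at KO day 4, against 809.6, 843 and 855 scaled CPM at day 0 (−0.85). In the TGF-beta and BMP pathway, whose receptors the medium blocked in both groups, 11 of 32 fell and 7 rose. Smad5, which carries the BMP signal, had 30.7, 26.9 and 27.3 scaled CPM at KO day 4, against 92.9, 100 and 90.5 scaled CPM at day 0 (−1.72), the shared partner Smad4 was lower by 0.98, and Ltbp1, which stores latent TGF-beta in the matrix, by 1.95. The YAP pathway and its targets fell in 13 of 27 and rose in 4 (median −0.17), with the DNA-binding partner Tead1 at 119.8, 119 and 114 scaled CPM at KO day 4, against 197, 191 and 241 scaled CPM at day 0. Of 13 genes of EGF receptors and ligands 4 rose and 3 fell. Epgn (0.95) and Nrg1 (0.61) were higher, and Nrg2 (−1.86) and Tgfa (−0.77) lower, all of them ligands.

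**Figure D5:**
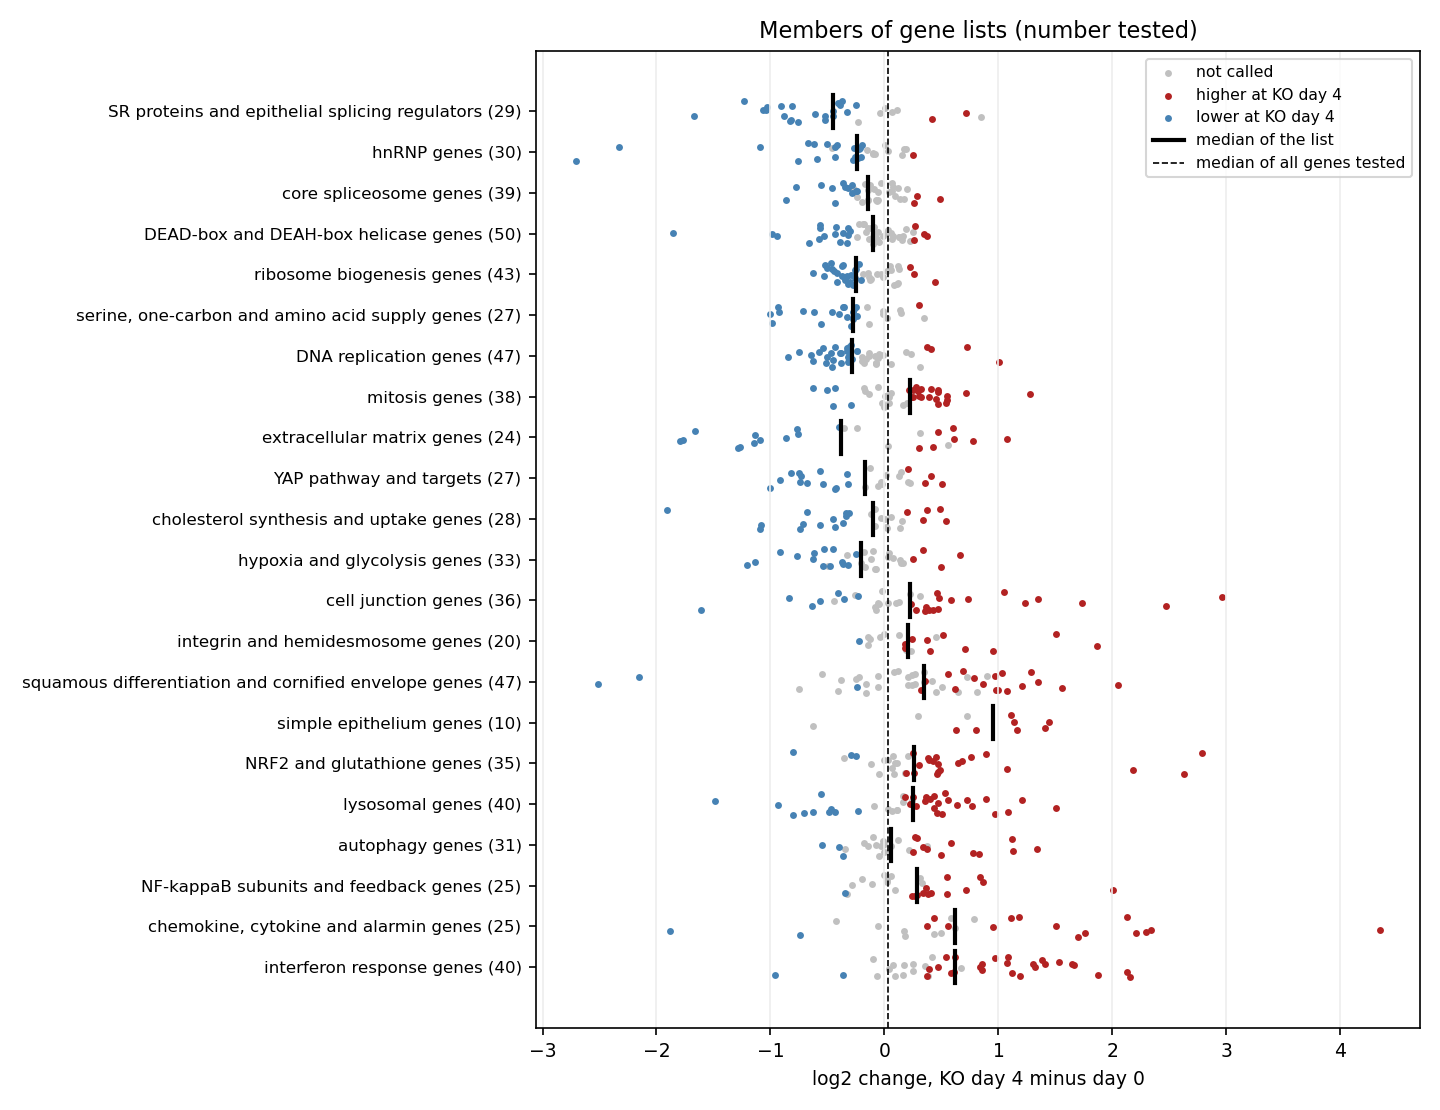
Log2 change (KO day 4 minus day 0, horizontal axis) of each member of 22 gene lists, coloured by call, with the median of each list as a black bar and the median of all genes tested as a dashed line (0.03). Medians of the interferon, chemokine and simple epithelium lists lie highest, and those of the SR protein and matrix lists lowest.

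DNA replication genes fell in 25 of 47 and rose in 4 (median −0.28), against 22.3% lower and 23.7% higher over all genes. The helicase subunit Mcm2 had 124, 127 and 113 scaled CPM at KO day 4, against 189, 178 and 196 scaled CPM at day 0 (−0.63), and Gmnn, the licensing inhibitor geminin, was lower by 0.84. Rrm2, a subunit of ribonucleotide reductase, was the exception by size, with 702, 716 and 694 scaled CPM at KO day 4, against 349, 325 and 378 scaled CPM at day 0 (1.01). Mitosis genes rose in 20 of 38 and fell in 5 (median 0.22). Plk4, the kinase of centriole duplication, had 213, 185 and 171 scaled CPM at KO day 4, against 76, 82.1 and 74.5 scaled CPM at day 0 (1.28), and Tpx2, a spindle assembly factor, rose by 0.54. Birc5, a subunit of the chromosomal passenger complex, had 67.3, 69.9 and 68.8 scaled CPM at KO day 4, against 109, 98.3 and 112 scaled CPM at day 0 (−0.63). Kinesins rose in 13 of 33 and fell in 6. With KO day 4 replicate 3 alone against the 3 day 0 libraries, the median change was −0.30 for replication genes and 0.16 for mitosis genes. Within replicate 2 of both groups alone, the median change was −0.19 for replication genes and 0.28 for mitosis genes. In G1 regulators 9 of 30 fell, Cdk6 among them, and 7 rose, with the inhibitor Cdkn1c at 5.3, 7.27 and 6.52 scaled CPM at KO day 4, against 1.65, 2.36 and 1.08 scaled CPM at day 0 (1.67).

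Ribosome biogenesis genes fell in 24 of 43 and rose in 3 (median −0.25), each by little, such as Wdr43, a part of the small subunit processome, with 155, 138 and 139.8 scaled CPM at KO day 4, against 226, 219.5 and 223 scaled CPM at day 0. Within replicate 2 of both groups alone, the median change of these genes was −0.15. Cytosolic ribosomal proteins did not follow, with 9 rises and 1 fall in 83 (median 0.19). Mitochondrial ribosomal proteins fell in 19 of 77 (24.7%), near the 22.3% of all genes that fell. They rose in 4 (5.2%), against 23.7% of all genes. Serine, one-carbon and amino acid supply genes fell in 18 of 27 and rose in 1 (median −0.27). The glutamine transporter Slc1a5 had 84.3, 80.4 and 73 scaled CPM at KO day 4, against 159.8, 140.0 and 155 scaled CPM at day 0 (−0.93), and Shmt2, the mitochondrial serine hydroxymethyltransferase, had 248, 254 and 242 scaled CPM at KO day 4, against 365, 353 and 379.9 scaled CPM at day 0 (−0.56). Cholesterol genes fell in 13 of 28 and rose in 5 (median −0.10). Nsdhl, a late enzyme of cholesterol synthesis, had 49.2, 43.7 and 40.1 scaled CPM at KO day 4, against 162, 176 and 166 scaled CPM at day 0 (−1.91 ± 0.08). Hypoxia and glycolysis genes fell in 14 of 33 and rose in 4, with Pdk1, which restrains pyruvate dehydrogenase, lower by 1.21 and Hk1, a hexokinase, higher by 0.66.

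NRF2 and glutathione genes rose in 20 of 35 and fell in 3 (median 0.26), against 23.7% higher and 22.3% lower over all genes. Aldh3a1, an aldehyde dehydrogenase of surface epithelia, had 75.5, 80.9 and 83.2 scaled CPM at KO day 4, against 13.3, 21.3 and 17.8 scaled CPM at day 0 (2.18 ± 0.17). Gclc, the catalytic subunit of the first enzyme of glutathione synthesis, was among the 3 falls, with 393, 380.3 and 365 scaled CPM at KO day 4, against 667, 659 and 664 scaled CPM at day 0 (−0.81). Lysosomal genes rose in 22 of 40 and fell in 10 (median 0.25). Cd68, a lysosomal membrane protein, had 198, 218 and 193 scaled CPM at KO day 4, against 62.9, 81.3 and 70.6 scaled CPM at day 0, and Grn, the granulin precursor, had 224, 256 and 257 scaled CPM at KO day 4, against 114, 114 and 118 scaled CPM at day 0 (1.09). Ids, which degrades glycosaminoglycans, fell by 1.48. In 31 autophagy genes 12 rose and 3 fell. Sqstm1, the receptor for ubiquitinated cargo and itself an NRF2 target, had 246, 264 and 239 scaled CPM at KO day 4, against 120.0, 117 and 107 scaled CPM at day 0 (1.12). Of 35 genes of the integrated stress and unfolded protein responses 9 rose and 13 fell, and of 33 p53 targets 10 rose and 6 fell. The kinase Plk3 was higher by 1.22 and the cyclin Ccng1, a p53 target, lower, with 639, 593 and 564 scaled CPM at KO day 4, against 1234, 1140 and 1241 scaled CPM at day 0.

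Set against KO day 2 and hypomorph day 4, most of the strongest changes were further along at KO day 4. The 21 largest rises are the 15 largest and the 6 largest of abundant genes, and the 21 largest falls were taken likewise, so KO day 4 values also chose them. Of all genes tested, 31.7% differed between KO day 4 and KO day 2 and 24.5% between KO day 4 and hypomorph day 4. Ppbp averaged 203 scaled CPM at KO day 4, against 44.7 scaled CPM at KO day 2 and 42.2 scaled CPM at hypomorph day 4. Xiap averaged 21 scaled CPM at KO day 4, against 63 scaled CPM at KO day 2 and 64.8 scaled CPM at hypomorph day 4. Ctnnb1 averaged 231 scaled CPM at KO day 4, against 421 scaled CPM at KO day 2 and 472 scaled CPM at hypomorph day 4 (KO day 4 minus hypomorph day 4 −1.03, adjusted p = 1.8e-12). Nudt21 itself averaged 3.03 scaled CPM at KO day 4, against 3.02 scaled CPM at KO day 2 and 5.01 scaled CPM at hypomorph day 4, and its difference from hypomorph day 4 was not called (adjusted p = 0.1). Against hypomorph day 4 Gpnmb ran the other way, with a mean of 486 scaled CPM at KO day 4 and 725 scaled CPM at hypomorph day 4. KO day 4 was not tested against KO day 6. At KO day 6 Ppbp averaged 54.1 scaled CPM, nearer to day 0 than at KO day 4. Xiap (12.9 scaled CPM) and Ctnnb1 (147 scaled CPM) were further from day 0 at KO day 6 than at KO day 4.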

How the data were processed

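RNA was poly(A)-selected and sequenced from NEBNext directional libraries amplified for 14 cycles, per the labels' protocols. STAR and featureCounts served for alignment (mRNA to mm10, poly(A) sites to mm9) and counting, per the submitters' processing notes, without versions. In the deposited mRNA table each value is a normalized signal, CPM scaled by the authors. The authors' comparison table gives a log2 change, a p-value and a gene length; its test is not stated. The deposited poly(A) site table gives a ratio of proximal to distal use per group, pooled in a way not stated, and the authors' call.

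Whole reads were recovered from the deposited signal (100% of values within 0.1 of a whole read). The two-sided test was limma's (version 3.58.1, R 4.3.3), applied to log2(scaled CPM + 0.5) with the trend and robust options of its empirical Bayes step. A single fit took the 18 libraries, with group as its factor, and the genes at 1 CPM or more in at least 3 libraries. Benjamini-Hochberg adjustment ran over all 12344 genes. The design assumed CPM; the column totals differ between libraries, so the unit is a scaled signal and the test was kept. edgeR 4.0.16 and DESeq2 1.42.0 on recovered reads, TMM scaling, other pseudocounts and filters, thinned reads, depth and Alb (albumin, a hepatocyte gene) terms, leaving out libraries and a replicate block were alternatives. The script was tested on simulated data. Counting error, not culture variation, sets the floors of 3 reads.

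Deviations of same-numbered KO day 4 and day 0 libraries from their group means correlated at 0.329, 0.662 and 0.283. KO day 4 replicate 3 correlated more with day 0 replicate 1 (0.457) than with its own number, and KO day 4 replicate 1 correlated with day 0 replicate 3 at 0.188, so replicate 2 of both groups stood apart from the rest. Named genes are Nudt21, the 15 largest rises and falls (mean of 5 scaled CPM or more in the higher group, groups not overlapping), the 6 largest each way at a mean of 200 scaled CPM or more, and the 4 members of smallest p in each list; a few others were named after their values were seen (the splicing, chemokine and NF-kappaB members named for going against their list, the genes behind printed windows, upstream neighbours and the basal markers). Members and lists were chosen with earlier results of these data known, so no list count is independent evidence. Gene names, strands and windows came from RefSeq GRCm38, to which 12186 of 12348 symbols matched. A few genes that the rule picks are counted but not reported here.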

Additional observations from a re-analysis of the deposited data

Results flagged for a closer look

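Most of the largest changes at KO day 4 differed in size from KO day 2 and from hypomorph day 4, by limma's test of KO day 4 against each. Of the 21 largest rises, 20 differed between KO day 4 and KO day 2, and 18 between KO day 4 and hypomorph day 4. Of the 21 largest falls, 19 differed between KO day 4 and KO day 2, and 19 between KO day 4 and hypomorph day 4. All but Gpnmb, against hypomorph day 4, were further from day 0 at KO day 4. The KO day 4 libraries also chose these genes, and the 3 comparisons share libraries, so the counts are not independent of the choice.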

How the results depend on the processing

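Counts of 2921 rises and 2754 falls held within 1.5 times under most alternatives. With libraries under 40 M reads alone, which leaves 1 KO day 4 library against 3 day 0 libraries, they were 1357 and 1647, and without libraries with Alb above 100 scaled CPM, which leaves 1 KO day 4 and 1 day 0 library assumed to vary like the other groups, 1459 and 1357. Leaving out 1 replicate at a time gave 2497 to 2768 rises and 2375 to 2532 falls, and a Nudt21 change of −2.12 to −1.82. Rises made up 51.5% of calls, against 48.3% with TMM, 48.1% with edgeR and 44.5% with a depth term, so which direction has more calls depends on the setting. With the replicate block 2966 rose and 2804 fell; the same block on KO day 4 and day 0 alone, added after seeing the data, gave 2923 and 2758. The named genes counted here leave out Krt15, Sox2, Itgb4, Col17a1, Ngfr, Serpinb9 and Serpinb9b. Beyond Tgm3 the block on all 18 libraries changed no call of a named gene. On KO day 4 and day 0 alone, Irgm2 (adjusted p = 0.101), Krtdap (0.204) and Tgm3 (0.35) lost theirs. Among genes with a proximal shift of at least 10 points, 33.3% fell, against 35.3% of those the authors called. Of 121 named genes 14 lost a call in at least 1 alternative: Irgm2 in 11 of 21, Tgm3 in 11 of 21, Trp63 in 8, Krtdap in 4, Krt14 in 3, and B2m, Cxcl2, Cxcl3, Esrp2, Gbp2, Ifit2, Oas3, Tmeff1 and Trim25 in 1 or 2. Among genes not called, Krt5 was called in 5. Bbs5 was called lower without KO day 4 replicate 3 (−0.65, limma adjusted p = 0.0139). It was −0.82 without libraries with Alb above 100 and turned to 0.0528 with libraries under 40 M reads alone. Rab40c, at 0.03, turned to −0.00743 with a depth term and to −0.00731 without libraries with Alb above 100. With 1 replicate left out Rab40c ranged from −0.022 to 0.0676. The authors' deposited table called 5588 genes, 5526 of them called here too. Only 1 KO day 4 library was as shallow as day 0, so low genes are measured less well at day 0, and poly(A) site shares have no replicates.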
